A study of Mus musculus with 8 samples.

Results

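The genes described here are 45 genes that cells switch on in response to type I interferon, many of which restrict viruses. They were chosen as a list of symbols, with earlier results of these data known, and found in the scanner files by an exact match of the gene name. They had 65 of the 55681 probes on the array, and 43 of the 45 genes had a probe well above background on all 8 arrays. Those 43 were among the 21003 gene names tested over the whole series. Signal for Oas1g and Oas3, which encode oligoadenylate synthetases, was well above background on 0 of 8 arrays, so no comparison was made for them. RNA came from lumbar dorsal root ganglia (DRGs) L3-L5, in which sensory neurons sit among satellite glia, Schwann cells, vessels and resident immune cells. The FD group was male mice with the label alpha-Gal A(-/0), which lack α-galactosidase A, the lysosomal enzyme that is missing in Fabry disease. The wildtype group was male mice as well. Both groups carried the strain label C57BL/6J and were 20 to 24 weeks old. There were 4 samples per group, each pooled from the DRGs of 2 mice, so the spread given below is between pools. The FD mice and the wildtype mice came from separately inbred colonies kept free of specific pathogens, per the methods, so genotype and colony cannot be told apart.

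Type I interferons are secreted proteins that bind a receptor made of Ifnar1 and Ifnar2. The receptor activates kinases of the Janus family, and these activate transcription factors that bind the interferon-stimulated response element of target promoters. The induced proteins sense viral nucleic acids, degrade viral RNA, block viral translation or entry, or attach the ubiquitin-like protein Isg15 to other proteins. In healthy tissue a low tonic level of interferon keeps many of these genes expressed.

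Each sample was read on its own array, all 8 of them on 1 slide and in 1 color. The share of probes well above background was 56.5% to 60.8% per array, and with 4 arrays per group the precision of every value is limited by their number. The only probe of the disrupted gene, Gla, had a log2 signal of 16.51 to 16.71 in FD and 16.49 to 16.72 in wildtype, and whether it lies in the disrupted sequence is not given in the sources used here, so it does not check the labels. Row 1 of the slide held FD samples 1 to 3 and wildtype sample 1, and row 2 held FD sample 4 and wildtype samples 2 to 4. All 9 listed markers of sensory neurons, among them Rbfox3, Tubb3 and Calca, were well above background on all 8 arrays, which every tested gene had to be. Because the ganglia were measured in bulk, fewer cells of a type and less RNA per cell cannot be told apart.

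Of the 43 tested interferon-stimulated genes, 10 were lower in FD DRGs at an adjusted p under 0.05 in limma (23.3%, against 1.1% of all tested genes) and 0 were higher (against 2.02% of all tested genes). The 10 were Usp18, Isg15, Oas2, Ifi27l2a, Ifit1, Oasl2, Parp10, Tnfsf10, Xaf1 and Cmpk2, and the other 33 did not pass. The difference from wildtype had a negative sign in 41 of 43 genes (95.3%, against 44.3% of all tested genes). Its median was -0.34 on the log2 scale, which is 1.26-fold lower, against a median of 0.0194 over all tested genes. The values of single genes ran from -1.07 in Usp18 to 0.18 in Herc6. At an unadjusted p under 0.05, 28 genes were lower (65.1%, against 7.11% of all tested genes) and 0 were higher. With the study's criteria applied to the p of limma, an unadjusted p of at most 0.01 and a fold change of at least 1.2, 22 were lower (51.2%, against 2.39%). Every FD sample lay below every wildtype sample in 22 genes (51.2%, against 5.13%), and no gene had all FD samples above all wildtype samples (against 8.62%). Among these 22 genes, the gap between the groups rounded to 0 in Bst2 and Oasl1. The 10 called genes lie on 8 chromosomes and the 43 tested genes on 16. The study had already listed Usp18 as lower. Its discussion of regulated genes also names Oasl2, Parp10, Tnfsf10 and Oas1a, and Irf5, Psmb8 and Psmb9, which are described further below. A cluster of its downregulated genes was enriched for the response to virus. The genes described here were chosen with earlier results of these data known. The shares above are therefore not an independent test.

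**Figure D1:**
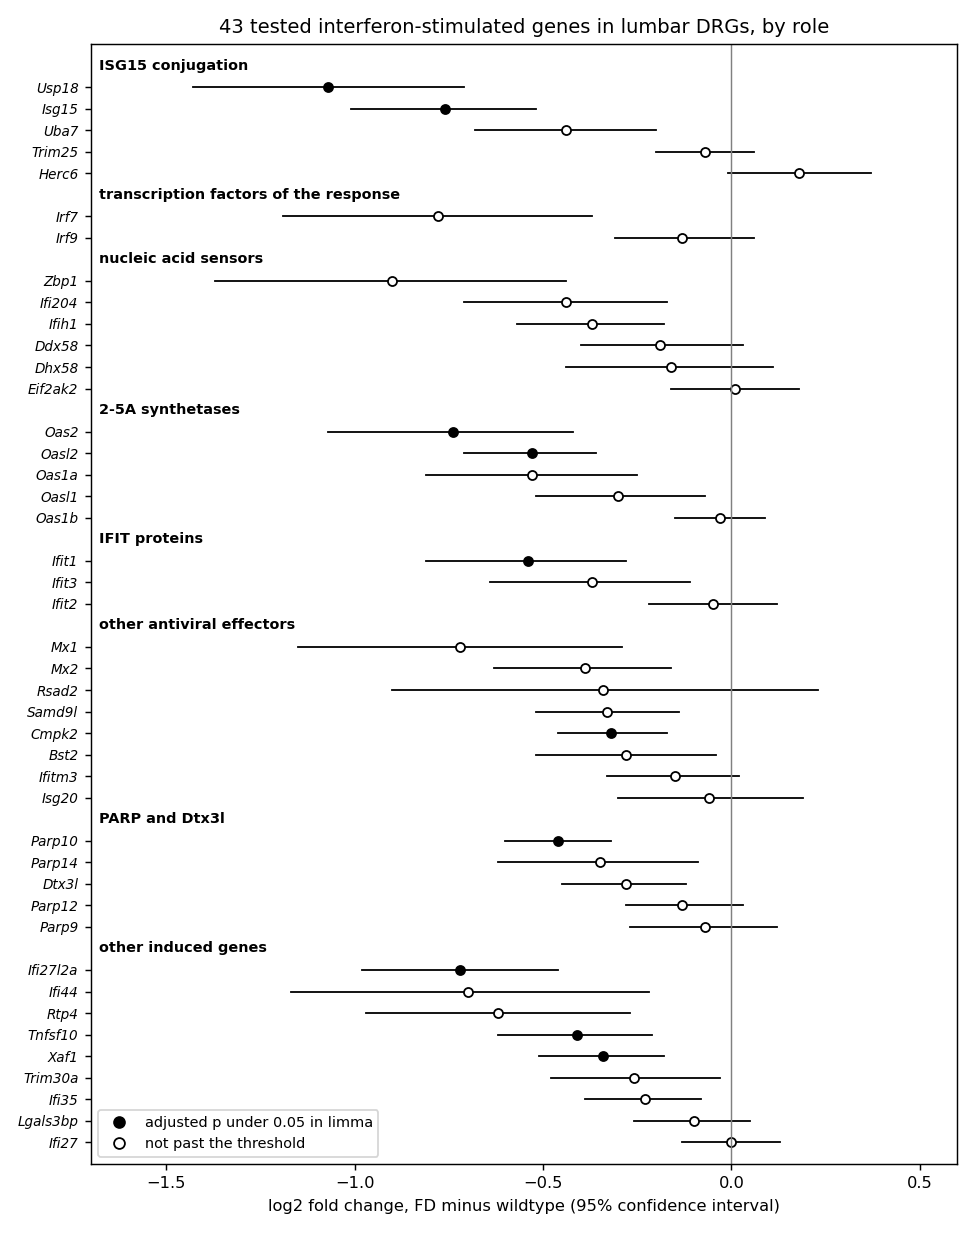
Log2 fold change of the 43 tested interferon-stimulated genes, FD minus wildtype, with 95% confidence intervals from limma, grouped by role (4 samples per group). Filled points are the 10 genes with an adjusted p under 0.05, and 41 of the 43 points lie below 0.

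The number of called genes depended on single samples and on the test. With 1 sample left out it was 5 without FD sample 1, 2 or 3 or wildtype sample 4, 6 without FD sample 4, and 16 without wildtype sample 1. The number called lower over all tested genes was 231 with all samples. It ran from 116 without FD sample 2 to 287 without wildtype sample 1. Usp18, Isg15, Oasl2, Parp10 and Ifi27l2a were called whichever sample was left out. The other 5 lost their call when any FD sample was left out, as Oas2 did without wildtype sample 4, Ifit1 without wildtype sample 1, 2 or 4, Xaf1 without wildtype sample 1, 3 or 4, and Cmpk2 and Tnfsf10 without wildtype sample 2, 3 or 4. The methods' t-test on the same values called 0 of the 43 genes in either direction after adjustment. Over all tested genes it called 70 lower and 124 higher. Its lowest adjusted p among the 43 was 0.0558 for Oasl2 (0.00431 to 0.0558 over all alternatives). At an unadjusted p under 0.05 by this t-test, 25 genes were lower and 0 higher. The share of all tested genes at that threshold by the t-test was not computed. With the slide row as a block, 7 genes were called, without Ifit1, Oas2 and Tnfsf10, against 214 called lower over all tested genes. The median with this block was -0.26, and within row 1 and row 2 alone it was -0.22 and -0.35. Within row 1, where wildtype sample 1 is the only wildtype sample, the sign was negative in 32 of 43 genes. Within row 2, where FD sample 4 is the only FD sample, it was negative in 41. The same values over all tested genes within a row were not computed, so the counts and medians within rows have no background beside them. Under every other alternative tried, the sign was negative in at least 38 genes.

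The interferon-stimulated response element could be looked for in the promoters of 31 of the 45 genes, for which RefSeq start sites were at hand (GRCm38.p6, 250 bases before to 50 bases after each start). Its core, searched as GAAANNGAAA on both strands, occurred in 13 of the 31 genes (41.9%), against 1079 of 27025 genes with such a window (3.99%). The gamma-activated site, searched as TTCNNNGAA, a palindrome that reads the same on both strands, occurred in 7 of the 31 (22.6%, against 9.55%). The motifs overlapped each other in 2 places in these windows. The stretches below are shown because they hold the letters through which the response is known to be read in some of the genes described next, with the core in capitals and each read along the strand of its gene. Where the core lies on the opposite strand, it appears as TTTCNNTTTC.
Isg15, chr4:156200860-156200911, minus strand: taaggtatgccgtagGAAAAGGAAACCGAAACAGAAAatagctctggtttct
Ifit1, chr19:34640770-34640828, plus strand: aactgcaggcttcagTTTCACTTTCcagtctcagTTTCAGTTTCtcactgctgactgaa
Ifit3, chr19:34583358-34583431, plus strand: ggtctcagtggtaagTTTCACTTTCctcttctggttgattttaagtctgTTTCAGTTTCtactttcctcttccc
Oas1a, chr5:120907526-120907560, minus strand: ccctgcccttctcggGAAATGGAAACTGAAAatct
Bst2, chr8:71537572-71537617, minus strand: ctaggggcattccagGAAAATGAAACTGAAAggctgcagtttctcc
Rsad2, chr12:26456548-26456587, minus strand: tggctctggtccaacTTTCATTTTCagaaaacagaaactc
Eif2ak2, chr17:78882535-78882564, minus strand: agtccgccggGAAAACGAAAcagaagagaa

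Isg15 held 3 overlapping copies of the core between bases -78 and -57 from its start, and Ifit1, Ifit3, Oas1a and Bst2 held 2 copies each. The single copy of Eif2ak2 lay just after its start, between bases 19 and 28. Among the tested genes, the 11 with the core had log2 fold changes from -0.76 to 0.01 with a median of -0.34, and the 18 without it in the window had values from -0.78 to 0.18 with a median of -0.29. Both ranges overlapped over nearly their whole length. Of the 6 called genes with a window, 2 held the core (Isg15 and Ifit1), and Oasl2, Xaf1, Tnfsf10 and Cmpk2 did not. A match is a description of the letters and does not show that the site is used.

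The largest difference was found in the Isg15 conjugation system, of whose 5 genes 2 were called lower. Usp18 encodes the protease that removes Isg15 from proteins and also restrains signaling at the interferon receptor. Its log2 signal was 7.80, 7.87, 7.59 and 7.88 in FD samples 1 to 4, against 8.57, 8.61, 9.30 and 8.95 in wildtype samples 1 to 4. The groups were apart by 0.69 or more in every pairing of samples, and the spread was larger in wildtype. The difference was -1.07 (SE 0.159), a 2.1-fold lower level in FD (adjusted p = 0.00922 in limma), measured by a probe on chromosome 6 from 121220874 to 121220933 of mm9. Isg15 itself, the ubiquitin-like modifier, had 10.79, 10.71, 10.56 and 10.82 in FD, against 11.52, 11.19, 11.66 and 11.56 in wildtype. All FD samples were below all wildtype samples, of which wildtype sample 2 was the lowest. Isg15 was 1.7-fold lower (-0.76 on the log2 scale with an SE of 0.108, adjusted p = 0.00732, probe on chromosome 4 from 155573649 to 155573708), and its second, dimmer probe was called as well (-0.62, adjusted p = 0.044). The other genes of this system did not pass the test. Uba7, the enzyme that activates Isg15 for conjugation, had a log2 fold change of -0.44 (adjusted p = 0.0625), with FD samples from 10.24 to 10.61 and wildtype samples from 10.66 to 11.05. Trim25, a ubiquitin ligase that acts on the RNA sensor encoded by Ddx58, had -0.07 from both of its probes. Herc6, the mouse ligase for Isg15, had the highest value of all 43 genes at 0.18 (SE 0.0837, adjusted p = 0.308), and its groups overlapped.

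**Figure D2:**
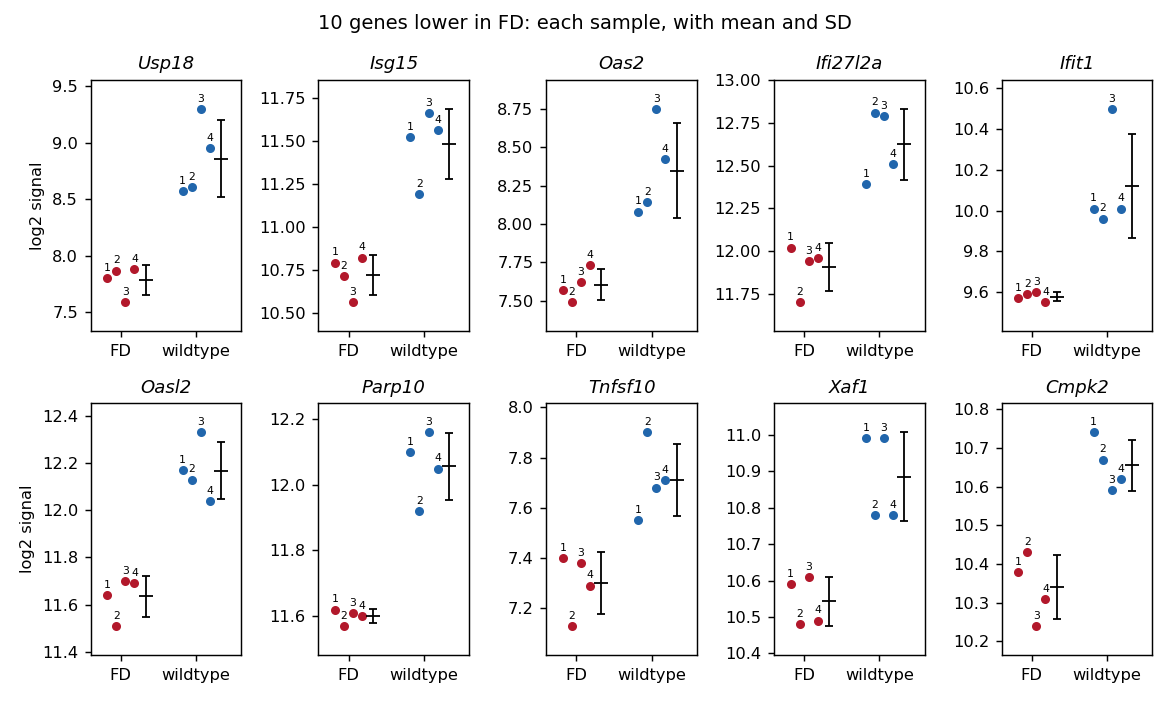
Log2 signal of the 10 genes with an adjusted p under 0.05 in each of the 4 FD samples (red) and 4 wildtype samples (blue), numbered by replicate, with the mean and SD of each group in black. In all 10 genes the FD samples lie below all wildtype samples, and the FD samples of Ifit1 lie between 9.55 and 9.60.

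The oligoadenylate synthetases make the short adenylate chains that switch on RNase L, and 2 of the 5 tested members of this family were called lower. Oas2 had 7.57, 7.49, 7.62 and 7.73 in FD, against 8.08, 8.14, 8.75 and 8.42 in wildtype, and wildtype sample 3 was the highest of all. It was 1.67-fold lower (-0.74 on the log2 scale with an SE of 0.142, adjusted p = 0.0294 in limma, probe on chromosome 5 from 121180343 to 121180402 of mm9). Oasl2, a synthetase-like protein with ubiquitin-like domains, had 11.64, 11.51, 11.70 and 11.69 in FD, against 12.17, 12.13, 12.33 and 12.04 in wildtype. The groups did not overlap and had like spreads (SD 0.0863 in FD and 0.122 in wildtype), and Oasl2 was 1.45-fold lower (log2 fold change -0.53, adjusted p = 0.00845, probe on chromosome 5 from 115362168 to 115362227). For Oas1a the brighter probe missed the threshold (-0.53, adjusted p = 0.0596) and the dimmer one passed it (-0.51, adjusted p = 0.0427), and in both the FD samples were below all wildtype samples. The brighter probe also lists the accession of Oas1g, so its signal can be shared between these near-identical genes. Oasl1, which has a role in holding back translation of Irf7, had -0.30 (adjusted p = 0.161). Its groups did not overlap either, but the gap between them rounded to 0. Oas1b, which carries a premature stop codon in common laboratory strains, stood apart from its family. Its 3 probes had values of -0.03, -0.04 and -0.03 with FD samples from 15.04 to 15.07 and wildtype samples from 15.04 to 15.16 for the brightest, and the 95% confidence interval of that difference was -0.15 to 0.09.

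The IFIT proteins bind viral RNA and block its translation. Ifit1 had 9.57, 9.59, 9.60 and 9.55 in FD, against 10.01, 9.96, 10.50 and 10.01 in wildtype. The FD samples differed from each other by 0.05 at most, and wildtype sample 3 lay far above the other wildtype samples. Ifit1 was 1.46-fold lower (-0.54 on the log2 scale with an SE of 0.116, adjusted p = 0.0462 in limma, probe on chromosome 19 from 34723796 to 34723855 of mm9). Wildtype sample 3 was also the only sample that could be left out without loss of the call. Ifit3, a partner of Ifit1, had -0.37 (adjusted p = 0.138) with FD samples from 10.63 to 11.05 and wildtype samples from 11.07 to 11.48. Ifit2 had -0.05 (adjusted p = 0.77), with overlapping groups.

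Among the PARP genes, whose products attach ADP-ribose to proteins, Parp10 had 11.62, 11.57, 11.61 and 11.60 in FD, against 12.10, 11.92, 12.16 and 12.05 in wildtype. Its FD samples were as close together as those of Ifit1, and the lowest wildtype sample, number 2, was above all of them. Parp10 was 1.37-fold lower (-0.46 on the log2 scale with an SE of 0.0623, adjusted p = 0.00644 in limma, probe on chromosome 15 from 76063433 to 76063492 of mm9), the lowest adjusted p of all 43 genes. Parp14 had -0.35 (adjusted p = 0.153), and Dtx3l, a ubiquitin ligase that works with Parp9, had -0.28 (adjusted p = 0.0801). Parp9 itself had -0.07 and Parp12 had -0.13, and the groups of both genes overlapped.

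Other induced genes made up 3 of the 10 called genes. Ifi27l2a, a small hydrophobic interferon-induced protein, had 12.02, 11.70, 11.94 and 11.96 in FD, against 12.39, 12.81, 12.79 and 12.51 in wildtype. The groups were apart, with wildtype sample 1 nearest to the FD samples, and the gene was 1.65-fold lower (-0.72 on the log2 scale with an SE of 0.115, adjusted p = 0.0133 in limma, probe on chromosome 12 from 104680394 to 104680453 of mm9). Its relative Ifi27 averaged 15.96 in FD and 15.97 in wildtype, a difference of 0 with a 95% confidence interval of -0.13 to 0.13. Tnfsf10, the death ligand TRAIL, had 7.40, 7.13, 7.38 and 7.29 in FD, against 7.55, 7.90, 7.68 and 7.71 in wildtype. Here wildtype sample 1 was 0.15 above the highest FD sample, and Tnfsf10 was 1.33-fold lower (log2 fold change -0.41, adjusted p = 0.0492, chromosome 3 from 27238508 to 27238567). Xaf1, which antagonizes an inhibitor of apoptosis, had 10.59, 10.48, 10.61 and 10.49 in FD, against 10.99, 10.78, 10.99 and 10.78 in wildtype. Wildtype samples 1 and 3 were the high ones in this gene, which was 1.27-fold lower (log2 fold change -0.34, adjusted p = 0.0455, chromosome 11 from 72122169 to 72122228). Of the remaining genes in this group, Trim30a (-0.26), Ifi35 (-0.23) and Lgals3bp (-0.10) did not pass the test.

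Cmpk2, a mitochondrial nucleotide kinase, was the only called gene among 8 other antiviral effectors. It had 10.38, 10.43, 10.24 and 10.31 in FD, against 10.74, 10.67, 10.59 and 10.62 in wildtype. It was the only called gene in which wildtype sample 3 was the lowest of its group and wildtype sample 1 the highest. Cmpk2 was 1.24-fold lower (-0.32 on the log2 scale with an SE of 0.0629, adjusted p = 0.0344 in limma, probe on chromosome 12 from 27164119 to 27164178 of mm9), and its second probe had -0.27 (adjusted p = 0.152). Mx2, a dynamin-like GTPase, had -0.39 (adjusted p = 0.0885), Samd9l, which restrains cell growth and viral replication, had -0.33 (adjusted p = 0.0765), and Bst2, the tetherin that holds budding virions at the cell surface, had -0.28 (adjusted p = 0.207). In these 3 genes the groups did not overlap, with a gap of 0.12 in Mx2, 0.01 in Samd9l and 1 that rounded to 0 in Bst2. Ifitm3, which blocks fusion of viruses in endosomes, had -0.15 (adjusted p = 0.342) and the exonuclease Isg20 had -0.06 (adjusted p = 0.821), both with overlapping groups.

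No nucleic acid sensor and neither transcription factor passed the test in limma, although some of the largest differences were among them. At an unadjusted p under 0.05 in limma, 3 of 6 sensors and 1 of the 2 transcription factors were lower, against 7.11% of all tested genes. The methods' t-test gave the same counts, and its share over all tested genes was not computed. Zbp1, a sensor of Z-form nucleic acids that triggers cell death, had 6.29, 6.32, 6.00 and 6.77 in FD, against 6.81, 7.12, 7.58 and 7.51 in wildtype. The highest FD sample, number 4, lay 0.04 below the lowest wildtype sample, number 1, and the log2 fold change was -0.90 (SE 0.204, adjusted p = 0.0533). Irf7, the transcription factor that amplifies interferon production, had 6.96, 6.40, 6.32 and 6.67 in FD, against 7.41, 6.99, 7.73 and 7.34 in wildtype, a log2 fold change of -0.78 (SE 0.18, adjusted p = 0.0573). FD sample 1 and wildtype sample 2 nearly met. Ifih1, a sensor of long double-stranded RNA, had -0.37 (adjusted p = 0.0533) and the DNA sensor Ifi204 had -0.44 (adjusted p = 0.0935). Ddx58, which encodes RIG-I, had -0.19, Dhx58 had -0.16 and Irf9 had -0.13. Eif2ak2, the kinase PKR that stops translation on binding double-stranded RNA, had 0.01 with a 95% confidence interval of -0.16 to 0.18.

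In most of these genes wildtype samples differed from one another more than FD samples did. The SD was larger in wildtype in 36 of 43 genes (83.7%), against 71.7% of all tested genes. The median SD of the 43 genes was 0.0916 in FD and 0.154 in wildtype, and over all tested genes it was 0.088 in FD and 0.134 in wildtype. Wildtype sample 3 was the highest of its group in 29 of 43 genes (67.4%, against 17.4% of all tested genes). Wildtype sample 1 was the lowest of its group in 25 (58.1%, against 35.8%). The median difference of the 43 genes from the wildtype mean was -0.29, -0.36, -0.37 and -0.32 in FD samples 1 to 4, against -0.16, -0.04, 0.15 and 0.02 in wildtype samples 1 to 4. All 4 FD medians were thus below all 4 wildtype medians, with wildtype sample 1, the only wildtype sample in row 1 of the slide, nearest to FD. Over all tested genes the same per-sample medians lay between 0.0139 and 0.0245 in FD and between -0.00587 and 0.00396 in wildtype. The part of slide row in this order of the samples was not tested.

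**Figure D3:**
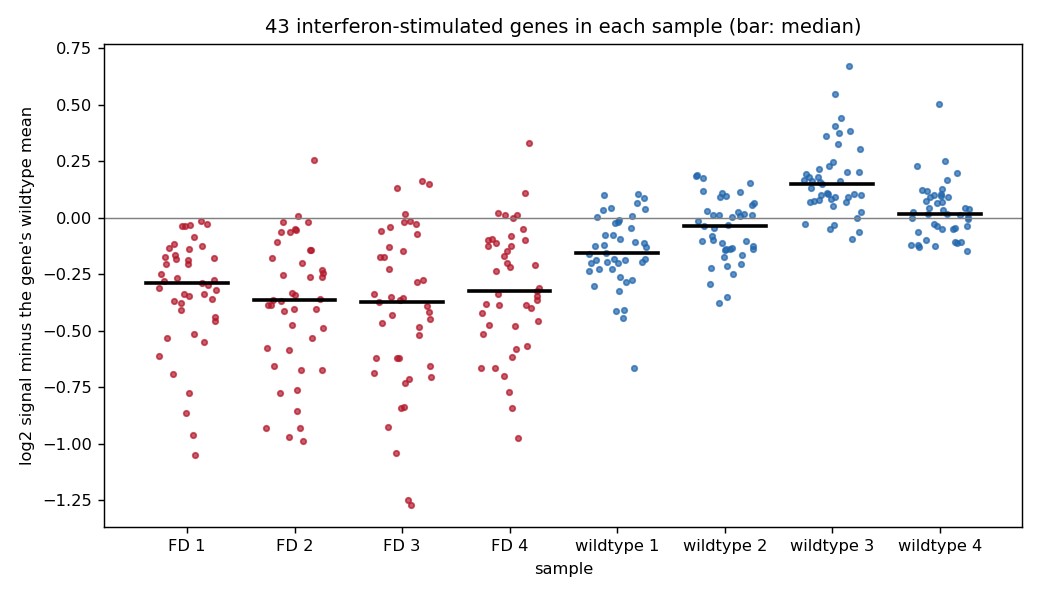
Difference of the log2 signal from the wildtype mean of the same gene, for the 43 tested interferon-stimulated genes in each sample, FD in red and wildtype in blue (points: genes, spread sideways at random; bars: medians). The medians lie between -0.37 and -0.29 in FD samples and between -0.16 and 0.15 in wildtype samples.

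The widest ranges within wildtype were those of Rsad2, Mx1, Ifi44, Rtp4, Zbp1 and Irf7, and none of these 6 genes was called. Rsad2, which encodes viperin, had 8.98, 9.17, 8.83 and 8.93 in FD, against 8.65, 9.11, 9.99 and 9.52 in wildtype. Its wildtype samples spanned 1.34 on the log2 scale and its FD samples 0.34, with wildtype sample 1 below every FD sample (-0.34 on the log2 scale with an SE of 0.249, adjusted p = 0.521 in limma). Mx1, a dynamin-like GTPase that traps viral nucleocapsids and is disrupted by a deletion in C57BL/6 mice, had 6.06, 6.52, 6.08 and 6.15 in FD, against 6.51, 6.75, 7.01 and 7.43 in wildtype (log2 fold change -0.72, adjusted p = 0.0888). FD sample 2 stood level with wildtype sample 1. Ifi44, an interferon-induced protein with antiviral activity, had 6.95, 6.53, 6.45 and 6.45 in FD, against 6.97, 6.94, 7.84 and 7.42 in wildtype (log2 fold change -0.70, adjusted p = 0.124). Rtp4, which was first described as a chaperone of receptor transport, had 10.79, 10.63, 10.59 and 10.72 in FD, against 10.90, 11.17, 11.68 and 11.47 in wildtype (log2 fold change -0.62, adjusted p = 0.0723). In Ifi44 and Rtp4 wildtype samples 3 and 4 were the high ones and wildtype samples 1 and 2 lay closer to the FD samples.

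**Figure D4:**
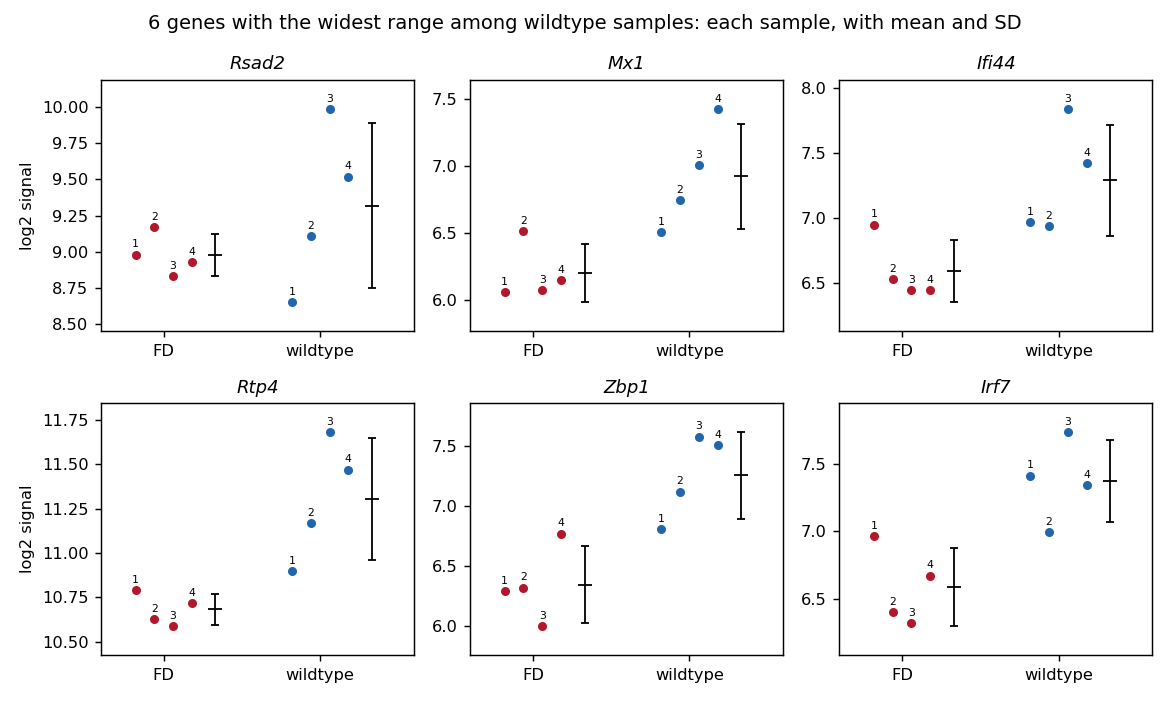
Log2 signal of the 6 interferon-stimulated genes with the widest range among wildtype samples, in each of the 4 FD samples (red) and 4 wildtype samples (blue), numbered by replicate, with the mean and SD of each group in black. In Rsad2 the FD samples span 0.34 and the wildtype samples 1.34 on the log2 scale.

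A list of 66 other genes of the interferon pathway was examined for the steps before and beside these genes. Of 59 tested, 5 were lower and 0 higher at an adjusted p under 0.05 in limma, 22 were lower and 0 higher at an unadjusted p under 0.05, and 40 had a negative sign. These shares were 8.47%, 37.3% and 67.8%, against 1.1%, 7.11% and 44.3% of all tested genes. This list too was chosen with earlier results of these data known, so its shares are not an independent test. The methods' t-test called 1 lower and 0 higher. Of the 12 ligand genes, 7 were tested and 0 were called or past an unadjusted p under 0.05 in either direction, and Ifna4, Ifnb1, Ifne and Ifng were well above background on no array. The mean log2 signal of the 7 ran from 6.55 to 6.62 in FD and from 6.53 to 6.80 in wildtype.

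Among receptors and kinases 2 of 8 were lower. Ifnar1, a chain of the type I interferon receptor, had 12.51, 12.49, 12.54 and 12.56 in FD, against 13.16, 13.31, 13.18 and 13.20 in wildtype. Ifnar1 had the lowest adjusted p of the pathway list and was 1.61-fold lower (-0.69 on the log2 scale with an SE of 0.0554, adjusted p = 0.000388 in limma). It was also the gene that the methods' t-test called. The value is that of the brightest of 3 probes, and the other 2, with mean signals of 8.08 and 6.83 in FD and 8.09 and 7.16 in wildtype, had -0.02 (adjusted p = 0.94) and -0.33 (adjusted p = 0.478). The probes of Ifnar1 therefore did not agree on a difference. Il10rb, a receptor chain shared by the interleukin 10 and lambda interferon receptors, had 10.65, 10.77, 10.58 and 10.62 in FD, against 10.95, 10.92, 10.93 and 11.00 in wildtype (log2 fold change -0.30, adjusted p = 0.0336). Ifnar2, Il10rb, Ifnar1 and Ifngr2 follow each other in this order among the protein-coding genes of chromosome 16 (GRCm38.p6). Ifnar2, the other chain of the type I receptor, had 0.07 (adjusted p = 0.72), and Ifngr2, a chain of the interferon gamma receptor, had -0.12 (adjusted p = 0.277).

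Downstream of the receptors, Irf5, a transcription factor of immune cells, had 8.18, 8.47, 8.28 and 8.34 in FD, against 8.79, 8.70, 8.79 and 9.03 in wildtype and was 1.43-fold lower (adjusted p = 0.0208 in limma). Stat2, which joins Irf9 in the response to type I interferon, had 0.12 (adjusted p = 0.43) and was not called. Of 10 tested induced GTPases, which attack the vacuoles of intracellular pathogens, all 10 had a negative sign, with a median of -0.64, and 8 were lower at an unadjusted p under 0.05, but Gbp6 alone was called. It had 8.97, 8.55, 8.69 and 8.76 in FD, against 9.23, 9.33, 9.35 and 9.41 in wildtype, without overlap of the groups (log2 fold change -0.59, adjusted p = 0.0121). Its second probe had -0.87 (adjusted p = 0.275). Of 10 genes of antigen presentation, 8 had a negative sign, with a median of -0.23, 6 were lower and 0 higher at an unadjusted p under 0.05, and 1 was called. This was Psmb8, a subunit of the immunoproteasome, with 10.37, 10.32, 10.18 and 10.43 in FD, against 10.57, 10.68, 10.89 and 10.94 in wildtype (log2 fold change -0.44, adjusted p = 0.0485). All FD samples of Psmb8 were below all wildtype samples. Tap1, a chain of the peptide transporter, had -0.62 (adjusted p = 0.065), Psmb9, another immunoproteasome subunit, had -0.42 (adjusted p = 0.064), and the positive values were those of B2m, the light chain of class I molecules (0.07), and H2-K1, a class I heavy chain (0.04).

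Several cell types of the ganglion and its blood could hold these transcripts, and their markers were read in the same samples. Of 66 tested marker genes, 0 were called in either direction by limma or by the methods' t-test. At an unadjusted p under 0.05, 17 were lower and 3 higher in limma, and 8 were lower and 3 higher by the methods' t-test. A negative sign was found in 53 of the 66. Over all tested genes, 7.11% were lower at an unadjusted p under 0.05 in limma and 44.3% had a negative sign. The shares of the markers were above both. The mean log2 signal of 9 macrophage markers ran from 9.86 to 10.29 in FD and from 10.03 to 10.29 in wildtype, with Cd163 well above background on no array. Single macrophage markers went in both directions. A negative sign was found in 8 of the 9, among them Aif1 at -0.46 (adjusted p = 0.233 in limma). Cd68 had 0.51 (adjusted p = 0.0573 in limma), with all FD samples above all wildtype samples. For 4 red blood cell markers it ran from 10.13 to 10.84 in FD and from 10.59 to 11.35 in wildtype (median log2 fold change -0.47), and for 3 markers of B and plasma cells from 7.10 to 7.78 in FD and from 7.78 to 8.61 in wildtype. Among these B and plasma cell markers Igj, the joining chain of antibodies, had -1.27 (adjusted p = 0.233) with wildtype sample 2 at 11.10, while Cd79a had -0.08 and Cd79b had -0.28. The 3 tested markers of plasmacytoid dendritic cells, the main producers of type I interferon, ran from 12.27 to 12.50 in FD and from 12.50 to 12.66 in wildtype, and 1 of them is Bst2, itself an interferon-stimulated gene. The 4 tested markers of T and NK cells ran from 8.88 to 9.24 in FD and from 8.92 to 9.17 in wildtype. Klrd1 was well above background on no array. The 6 neutrophil markers ran from 9.96 to 10.88 in FD and from 8.89 to 11.56 in wildtype. Wildtype sample 3 was the lowest wildtype sample in all 6 neutrophil markers, with Ngp at 7.41. It was the highest of all samples in the 4 red blood cell markers, with Slc4a1 at 9.44. The mean of 8 endothelium markers (9.55 to 9.62 in FD and 9.63 to 9.78 in wildtype) was lower in every FD sample than in every wildtype sample. Of the 8 markers, 7 had a negative sign, from Vwf (-0.39) and Flt1 (-0.36) to Emcn and Tek (both -0.01), and Kdr had 0.13. Markers of Schwann cells ran from 13.15 to 13.37 in FD and from 13.24 to 13.51 in wildtype. Fibroblast and meningeal markers ran from 10.85 to 11.24 in FD and from 11.05 to 11.38 in wildtype. Sensory neuron markers ran from 15.16 to 15.24 in FD and from 15.16 to 15.26 in wildtype, and satellite glia markers from 13.39 to 13.52 in FD and from 13.43 to 13.52 in wildtype. The part of these cell types in the differences of the interferon-stimulated genes was not tested.

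**Figure D5:**
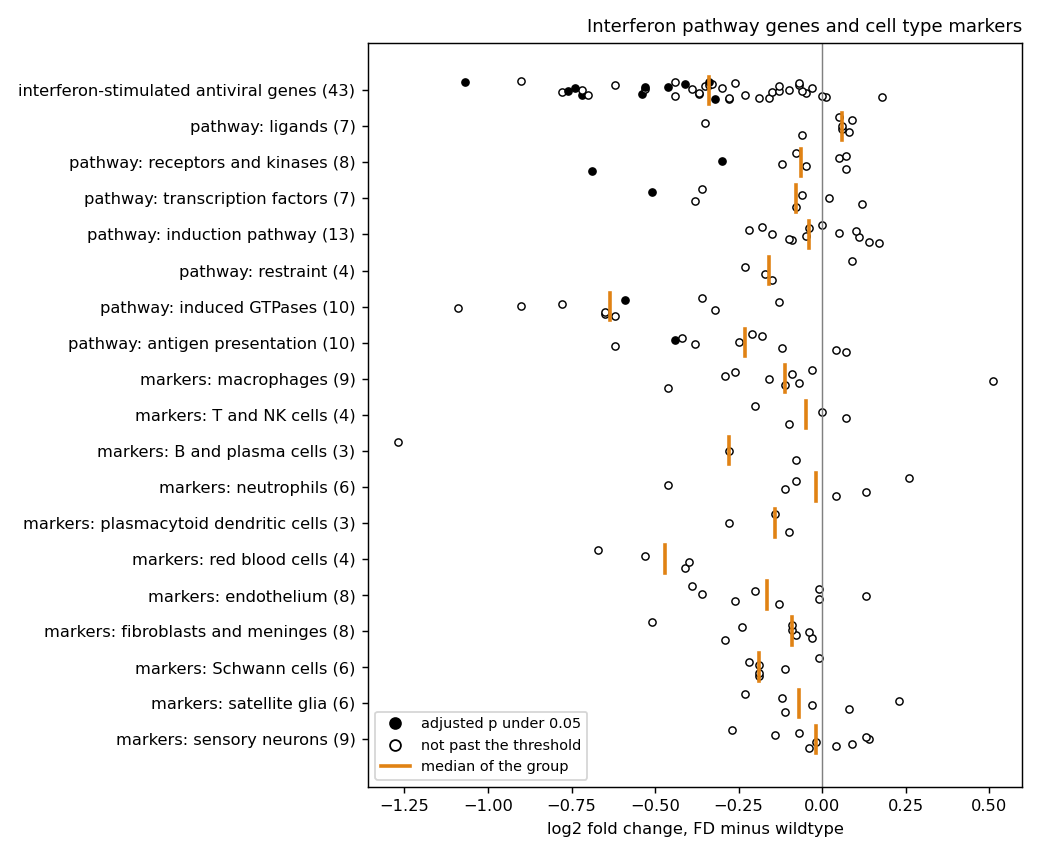
Log2 fold change, FD minus wildtype, of each tested gene (points) of the interferon-stimulated genes, the other pathway genes and the cell type markers, with the number of tested genes in parentheses. Orange lines are medians, -0.34 for the interferon-stimulated genes and -0.64 for the induced GTPases, and filled points have an adjusted p under 0.05 in limma.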

How the data were processed

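RNA of 4 FD and 4 wildtype DRG samples was measured on 1-color Agilent mouse gene expression arrays. The authors deposited scanner intensity values for each spot, to which Agilent Feature Extraction (version 10.7.3.1) had applied a background subtraction and a spatial detrend. A second deposited table, used as an alternative, holds log2 values that the authors had quantile normalized in GeneSpring.

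Control spots and 93 to 221 outlier spots per array were left out, and 0 spots were saturated. The log2 processed signals were averaged per probe and quantile normalized over 55681 probes (limma 3.58.1, R 4.3.3). Probes well above background on all 8 arrays were tested (29432 probes, 21003 gene names), with at least 0.5 of the spots of a probe required on each array. FD was compared with wildtype in limma (empirical Bayes, two-sided), with Benjamini-Hochberg adjustment over all tested probes at a threshold of 0.05. Fold changes are on the log2 scale. A gene is given by its brightest tested probe. Probe positions are those of the files (mm9).

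The members and the lists of pathway genes and markers were chosen with earlier results of these data known. Sample values are given for called genes and, among the members, for the 8 with the lowest p and for the 6 with the widest wildtype range. Receptor neighbors, Stat2, Tap1, Psmb9, B2m, H2-K1, markers and the members that did not pass were named beyond this rule. The fit was tested on simulated data. Alternatives were the methods' t-test, other filters, scaling, background correction, array weights, blocks, the mean of the probes of a gene and leaving out each sample. Promoter sequences are from RefSeq (GRCm38.p6). They were matched for 31 of 45 genes, and Usp18, Dhx58, Zbp1, Ifi204, Oas1b, Oas2, Mx1, Mx2, Parp9, Parp10, Parp14, Ifi27, Ifi27l2a and Rtp4 were not.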

Additional observations from a re-analysis of the deposited data

Results flagged for a closer look

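Single samples stood far from the other 3 of their group in 6 of 86 groups of the 43 genes (6.98%), where chance picks out about 1 in 20. FD sample 4 was high in Ifi35, at 10.68 with the next FD sample at 10.51, and in Ifitm3, at 11.48 with the next at 11.41. FD sample 1 was high in Ifi44, at 6.95 with the next FD sample at 6.53, and in Parp14, at 10.55 with the next at 10.46. FD sample 3 was low in Mx2, at 7.98 with the next FD sample at 8.36. Wildtype sample 3 was high in Ifit1, at 10.50 with the next wildtype sample at 10.01, and Ifit1 is the only one of these genes that was called.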

How the results depend on the processing

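The median log2 fold change of the interferon-stimulated genes stayed between -0.39 and -0.22 under every alternative, including the values within slide row 1 (-0.22) and row 2 (-0.35), which were added after the data were seen, and 0 genes were called higher under any of them. The count of genes called lower (10 as reported) was 0 with the methods' t-test, 2 with a replicate block and 4 without a filter on background. It was 22 at the study's criteria applied to the p of limma, 25 with array weights and 5 to 16 with 1 sample left out. With the deposited processed values the same 10 genes were called. Other pathway genes called numbered 5 as reported, 1 under both the methods' t-test and the replicate block, and 2 without a filter on background. They numbered 2 with the slide row as a block and 8 with normexp background correction. They numbered 14 at the study's criteria applied to the p of limma, 16 with array weights and 2 to 10 with 1 sample left out. Over all probes, 904 were called as reported, 284 with the replicate block, 266 with the methods' t-test and 556 without a filter. The count was 1774 at the study's criteria applied to the p of limma, 2102 with array weights and 414 to 1038 with 1 sample left out. Nothing in the labels says that a shared replicate number marks a shared animal or day. The deviations of same-numbered samples correlated at 0.06, -0.25, -0.05 and -0.02. Of 4 FD samples, 1 correlated best with the wildtype sample of its own number. The number of arrays limits which small differences could be called, and the cause of these changes was not tested. For the 16 genes given by sample, the direction was the same in all alternatives except within slide row 1, where Rsad2 had 0.35 (-0.34 as reported). Without the values within rows, the side of the threshold changed in 81 of 288 cases, 65 to a weaker and 16 to a stronger result.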
